A study of Homo sapiens with 183 samples.

Results

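The genes described here are 10 genes of heparan sulfate biology, chosen by name with earlier results of these data known. They were followed in every deposited table of transcript levels. They are the membrane core proteins SDC1, SDC2, SDC4 and GPC1, the secreted core proteins HSPG2 and AGRN, the chain-sulfating enzymes NDST1 and HS3ST1, and the sulfatases SULF1 and SULF2. All 10 were present among the 19875 gene names of each of the 8 tables.

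Heparan sulfate is a long sugar chain that cells attach to a small set of core proteins at their surface and in the matrix around them. Syndecans span the membrane, glypicans are held to it by a lipid anchor, and perlecan (HSPG2) and agrin (AGRN) are secreted into basement membranes. Sulfate groups placed along the chain decide which growth factors, chemokines and matrix proteins it holds: N-deacetylase/N-sulfotransferases such as NDST1 open the series of modifications in the Golgi, 3-O-sulfotransferases such as HS3ST1 add a rare late mark, and the extracellular 6-O-endosulfatases SULF1 and SULF2 remove sulfate again after the chain has reached the cell surface. Pancreatic ductal adenocarcinoma (PDAC), an epithelial cancer rich in matrix, is known for raised glypican-1 and syndecan-1.

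The data were bulk poly-A RNA-seq of human cancer cell lines, 183 libraries in 59 groups from 9 lines. In the knockout experiments, cells stably expressing Cas9 carried a guide RNA from a lentiviral vector and were taken on day 5. The control guide was sgRosa, and the knockout groups were sgKLF5 (the zinc finger factor KLF5), sgRUVBL1 and sgRUVBL2 (partner AAA+ ATPases), sgCDK1 and sgRpa3 (the mitotic kinase CDK1 and the replication protein RPA3), sgSERPINB5 and sgCHD4. AsPC-1 had 3 such experiments and 1 further with sgCHD4, T3M-4 and BxPC-3 had 2 each, and SUIT-2 and CFPAC-1 had 1 each. The numbered experiments of a line were read from the first replicate number in the labels, which do not themselves call them experiments. The study describes AsPC-1 and SUIT-2 as classical and T3M-4 and BxPC-3 as basal-like PDAC; CFPAC-1 is a further pancreatic line. In the inhibitor experiments, AsPC-1 and T3M-4 stably expressing an empty vector (EV), RUVBL1 A62T or RUVBL2 dF109 received CB-6644, an inhibitor of the RUVBL1/RUVBL2 ATPase, or its solvent DMSO for 24 h, with 3 CB-6644 libraries and 1 DMSO library for each vector. The parental lines T84 (colorectal carcinoma), A375 (melanoma), H1048 (small-cell lung cancer of tuft cell type) and RH30 (alveolar rhabdomyosarcoma) received the same compound, with 4 CB-6644 and 4 DMSO libraries each. Each line is 1 line, and the guide within a group is not given by the labels.

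Levels are transcripts per 1e+06 (TPM), a unit that divides by transcript length, so levels of different genes can be set side by side. Changes are differences of log2(TPM + 1) with their standard errors (SE) from limma, a linear model with a spread shared across genes, and a change was called where its Benjamini-Hochberg adjusted p over all genes tested was under 0.05; the added 1 makes a fold change smaller than the ratio of the levels for genes near 1 TPM. Genes with a mean under 1 TPM in a fit were not tested. TPM keeps no read depth, so the depth is unknown; between 11292 and 14024 genes reached 1 TPM per library. The study calls its knockout libraries of both classical and both basal-like lines biological replicates, made with more than 1 guide per target, but the labels name neither the guide nor the culture of a library, so the p-values measure the spread between these libraries, guides included, which may in part be technical. In bulk RNA, fewer cells of a type and less RNA per cell cannot be told apart.

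Several libraries stood apart in ways that touch these genes. RUVBL1 mRNA was 27.4 to 53.7 TPM in sgRUVBL1 libraries against 79.5 to 175 in sgRosa of the same experiments, and RUVBL2 mRNA was 31.4 to 128 in sgRUVBL2 against 92.0 to 256, whereas KLF5 mRNA (92.1 to 604 TPM in sgKLF5 against 108 to 400 in sgRosa) was below sgRosa without overlap in CFPAC-1 alone, so that the KLF5 label is not checked by the mRNA elsewhere. In CFPAC-1, CDK1 was 194 and 207 TPM in the libraries labelled sgCDK1 and 81.0 and 91.9 in those labelled sgRpa3, against 206 to 236 in sgRosa, which goes against these labels. One AsPC-1 sgKLF5 library of the first experiment, replicate 6, carried basal-like keratin RNA: the sum of 6 basal markers was 246 TPM against 14.0 to 18.1 in the other libraries of its group. In 13 libraries, RNAs of at least 5000 bases and 62% GC were together low (an index below -0.5, taken as the median over such genes of the log2 deviation from the median library of the experiment). Markers of the labelled tissue were present in T84 (CDX2, VIL1), H1048 (POU2F3, AVIL) and RH30 (MYOD1, MYOG, DES), with the tuft cell channel gene TRPM5 near 0 in H1048; in A375, SOX10 and MITF were present while MLANA and PMEL were near 1 TPM.

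The promoters of the 4 members that the knockout and inhibitor results turn on are shown first, since KLF5 belongs to a family of factors that bind GC-rich and CACCC elements. The windows come from RefSeq (GRCh38.p14), end at the annotated start of the main transcript, and are cut where another annotated transcript has an exon; each is written 5′ to 3′ on the strand of the gene, with matches to CACCC or its reverse complement GGGTG in capitals.
SDC1: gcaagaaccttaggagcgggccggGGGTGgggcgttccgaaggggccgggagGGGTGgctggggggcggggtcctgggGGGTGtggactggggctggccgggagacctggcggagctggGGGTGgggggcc
SULF2: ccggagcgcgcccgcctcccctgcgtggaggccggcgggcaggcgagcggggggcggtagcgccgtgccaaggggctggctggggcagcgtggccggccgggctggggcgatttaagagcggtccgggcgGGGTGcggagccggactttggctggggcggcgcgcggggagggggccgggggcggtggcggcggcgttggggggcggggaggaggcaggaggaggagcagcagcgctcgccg
HS3ST1: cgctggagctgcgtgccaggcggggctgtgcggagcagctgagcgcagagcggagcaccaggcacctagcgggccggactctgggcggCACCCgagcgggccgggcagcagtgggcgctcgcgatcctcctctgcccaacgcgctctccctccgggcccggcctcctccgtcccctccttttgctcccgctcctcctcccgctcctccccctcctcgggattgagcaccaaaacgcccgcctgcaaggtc
SDC4: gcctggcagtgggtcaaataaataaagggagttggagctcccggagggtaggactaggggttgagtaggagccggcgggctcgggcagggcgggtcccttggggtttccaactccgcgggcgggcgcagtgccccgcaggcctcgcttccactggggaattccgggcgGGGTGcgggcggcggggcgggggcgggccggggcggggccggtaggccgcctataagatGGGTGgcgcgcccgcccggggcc

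The SDC1 stretch lies at chr2:20225131-20225261 and holds 4 matches, at -107, -79, -53 and -12 bases from the start. The SULF2 stretch at chr20:47785490-47785731 holds 1 match at -120, the HS3ST1 stretch at chr4:11428895-11429144 holds 1 at -162, and the SDC4 stretch at chr20:45348425-45348674 holds 2, at -82 and -23. All 4 genes are on the minus strand. Over the full 250 bases, 5 of the 6 members with a RefSeq window at this start held a match on either strand, HSPG2 being the exception, and 54.7% of all 35116 windows of that length held one. A match is a description of letters and not a binding site. AGRN, SDC2 and SULF1 had no entry. The genes themselves lie at chr2:20200797-20225475 (SDC1), chr8:96493813-96611790 (SDC2), chr20:45325288-45348424 (SDC4), chr2:240435663-240468076 (GPC1), chr1:21822244-21937310 (HSPG2), chr1:1020120-1056116 (AGRN), chr5:150497779-150558211 (NDST1), chr4:11393150-11434327 (HS3ST1), chr8:69466781-69660912 (SULF1) and chr20:47657406-47786627 (SULF2), all in GRCh38.p14.

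Control libraries, sgRosa or DMSO, were compared by their levels first, to show which proteoglycan genes each line uses. SDC1, the syndecan of epithelia, was highest in AsPC-1 (336 ± 40.6 TPM, SD, n = 17) and ranged down through T3M-4 (211 ± 95.9, n = 9), BxPC-3 (196 ± 15.7, n = 6), T84 and CFPAC-1 to 38.9 ± 0.912 in RH30 (n = 4). T3M-4 controls of SDC1 ran from 99.996 to 352 TPM over 3 experiments, and overlapped those of AsPC-1, BxPC-3, T84 and CFPAC-1; SUIT-2 overlapped H1048 and A375. SDC4, a syndecan of focal adhesions, was present in every line, from 41.5 ± 2.48 in H1048 to 310.1 ± 31.2 in BxPC-3, with CFPAC-1 (221), T3M-4 (179.7), SUIT-2 (173) and T84 (143) between them. SDC2, the syndecan of mesenchymal and neural cells, was present in the lines without a pancreatic or colorectal origin, at 80.0 ± 2.11 TPM in H1048, 71.4 ± 1.79 in RH30 and 18.1 ± 1.08 in A375. In the PDAC lines SDC2 was 3.27 TPM in CFPAC-1, 1.54 in BxPC-3 and 0.795 in T3M-4, and its mean was below 0.03 in AsPC-1, SUIT-2 and T84. SDC1 was above SDC2 in the pancreatic lines, T84 and A375, whereas RH30, and by a small margin H1048, held more SDC2 than SDC1.

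GPC1, the glypican raised in PDAC, was 201 ± 27.0 TPM in BxPC-3 and 165 ± 7.27 in RH30, followed by T3M-4 (91.5) and AsPC-1 (65.0), and its lowest means were 13.9 ± 4.32 in SUIT-2 and 11.9 ± 0.658 in T84. AGRN led in BxPC-3 (346 ± 78.8) and CFPAC-1 (254 ± 57.2), and the other 7 lines lay between 61.6 and 180.3 TPM. HSPG2 was 211 ± 77.5 in CFPAC-1 and 8.64 ± 0.763 in H1048, but its control libraries spread widely within lines, from 8.87 to 102 TPM in T3M-4 and from 4.59 to 99.6 in SUIT-2, so that the middle of its order cannot be read. Among the enzymes, NDST1 was highest in RH30 (87.2 ± 3.79) and lowest in SUIT-2 (12.04 ± 4.74). HS3ST1 spanned more than NDST1, with 268 ± 73.5 TPM in SUIT-2, 137 ± 47.9 in BxPC-3, 94.6 ± 36.0 in T3M-4, 59.3 ± 5.26 in CFPAC-1 and 26.0 ± 5.67 in AsPC-1, and under 10 TPM in the 4 other lines.

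The sulfatases divided the lines. SULF2 was 513 ± 94.8 TPM in AsPC-1 and was present in 8 of 9 lines, in the order AsPC-1, SUIT-2 (189.6), BxPC-3 (156), CFPAC-1 (95.1), A375 (59.9), H1048 (23.8), T84 (13.6) and T3M-4 (11.6), with RH30 at 0.13. The SUIT-2 range of SULF2 (74.95 to 275) overlapped those of BxPC-3 and CFPAC-1, A375 fell within that of CFPAC-1, and T84 within that of T3M-4. RH30, with almost no SULF2, had the highest SULF1 level, 5.89 ± 0.183 TPM, ahead of A375 (2.86), H1048 (1.89), BxPC-3 (1.56) and T3M-4 (1.49). SULF1 was below 0.04 TPM in CFPAC-1, SUIT-2 and AsPC-1 and was listed at 0 in T84. Each line is 1 line, so these levels carry no test of tissue or subtype.

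**Figure D1:**
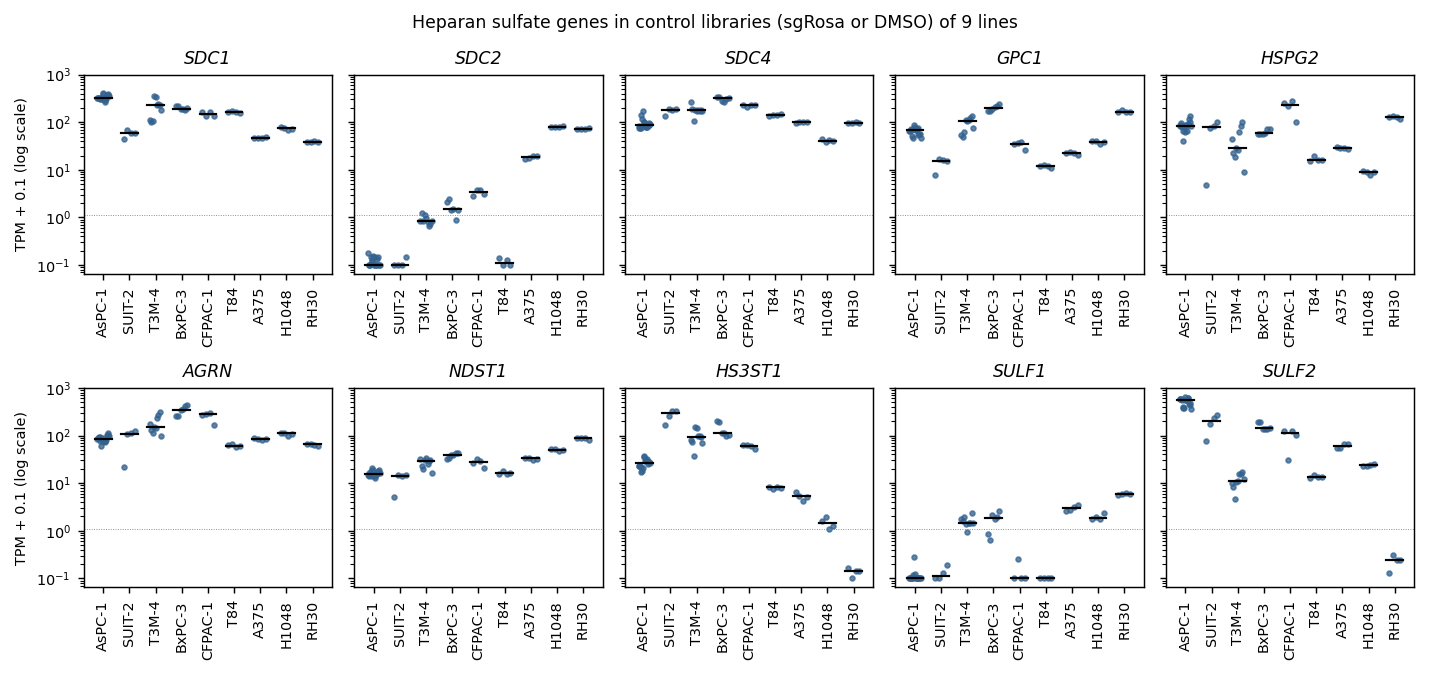
Level of each of the 10 genes in the sgRosa and DMSO libraries of the 9 lines, as TPM + 0.1 on a log axis; points are libraries, the bar is the median and the dotted line marks 1 TPM. SULF2 has a mean of 513 TPM in AsPC-1 and of 0.13 in RH30, and SDC2 and SULF1 lie under the dotted line in several epithelial lines.

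With sgKLF5, SULF2 fell in every PDAC line and experiment and SDC1 in 7 of 8 comparisons, while the remaining members moved in some lines and not in others. In CFPAC-1 the SULF2 and SDC1 calls were both lost with the index of long GC-rich RNAs as a covariate. That fit called no member with sgKLF5 in CFPAC-1, and the size of the SULF2 fall was kept. Across the 8 comparisons of sgKLF5 with sgRosa, 33 of 70 member tests passed, 27 lower and 6 higher, against 20.6% of all gene tests passing in either direction (8.81% lower and 11.8% higher). SULF2 gave 8 and SDC1 7 of the 27 lower calls. Their fall with sgKLF5 was known from these data when the members were chosen, so the excess over all genes is no independent support. The members' median change ranged from -0.46 to 0.41 over the comparisons, and that of all genes tested from -0.22 to 0.18. The members called were 6 of 9 in the first AsPC-1 experiment (25.9% of all genes), 4 of 8 in its repeat (27.8%), 1 of 8 in SUIT-2 (3.94%), 2 of 8 and then 3 of 9 in T3M-4 (5.72% and 34.6%), 6 of 9 and then 6 of 10 in BxPC-3 (16.2% and 34.6%) and 5 of 9 in CFPAC-1 (16.2%). SUIT-2 and the first T3M-4 experiment, with few calls among members, also had few calls among all genes.

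SULF2, the sulfatase that trims 6-O-sulfate from chains outside the cell, was 169 at the lowest, 207 at the median and 227 at the highest TPM in the 6 sgKLF5 libraries of the first AsPC-1 experiment and 646 and 565 in its 2 sgRosa libraries. In the repeat it was 119, 167, 188 and 161 with sgKLF5 and 453, 483, 427 and 367 with sgRosa. The groups did not overlap in either experiment, and the changes in SULF2 were -1.59 ± 0.11 and -1.45 ± 0.11 on the log2 scale (SE, adjusted p = 3.34e-06 and 9.18e-09, limma with Benjamini-Hochberg adjustment). In SUIT-2 it was 30.0, 27.2, 47.4 and 51.0 against 74.95, 172, 237 and 275 (-2.15 ± 0.39 (SE), adjusted p = 0.017). SUIT-2 sgRosa libraries spread widely, the lowest being also the library with the lowest index of long GC-rich RNAs (-1.77), and without such libraries the change was -2.395 (adjusted p = 0.00445).

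The basal-like lines started from different SULF2 levels and moved the same way. T3M-4 had 2.61, 1.88, 2.71 and 3.08 TPM with sgKLF5 against 10.7 and 11.1 in the first experiment (-1.75 ± 0.27 (SE), adjusted p = 0.0117). In the second the values were 3.79, 3.296, 3.54 and 3.63 against 15.3, 15.3, 17.2 and 12.4 (-1.81 ± 0.10 (SE), adjusted p = 3.65e-10). Both experiments thus had every sgKLF5 library of T3M-4 below every sgRosa library. BxPC-3 had 51.0, 48.5, 42.0 and 48.4 against 191 and 191 in the first experiment (-1.99 ± 0.09 (SE), adjusted p = 7.72e-07) and 61.6, 68.3, 78.3 and 75.6 against 135, 139, 134 and 143 in the second (-0.95 ± 0.10 (SE), adjusted p = 8.32e-07). The experiments were also compared by an interaction term, which called 6 of 10 members in BxPC-3 (16.7% of all genes), 2 of 9 in T3M-4 (17.4%) and 0 of 8 in AsPC-1 by limma (6.54%), where 1 had an unadjusted p under 0.05. The fall in SULF2 was larger in the first BxPC-3 experiment, by -1.04 (adjusted p = 2.02e-05).

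In CFPAC-1, SULF2 was 19.7, 21.8 and 23.4 TPM with sgKLF5 and 123, 30.8, 123 and 103 with sgRosa (-1.91 ± 0.33 (SE), adjusted p = 0.00396). The library labelled sgRosa replicate 2 lay apart from the other 3, with SULF2 of 30.8 TPM and SERPINB5 of 59.8 against 169 to 193; without it the SULF2 change was -2.38 (adjusted p = 8.88e-09). In none of the 8 comparisons did an sgKLF5 library reach the lowest sgRosa library in SULF2. Among all genes tested, the share with groups apart in either direction ran from 17.4% in SUIT-2 to 55.2% in the first T3M-4 experiment. The SULF2 call was lost without any 1 of 4 libraries in SUIT-2 (sgKLF5 replicates 1 and 2, sgRosa replicates 2 and 3; changes of -2.15 to -1.997) and of 3 in the first T3M-4 experiment (sgKLF5 replicate 1 or either sgRosa library; -1.77 to -1.72), with the direction kept. With the index of long GC-rich RNAs as a covariate the CFPAC-1 change was -2.01 (adjusted p = 0.0652), and SULF2 passed in the other 7 comparisons. No member was called in CFPAC-1 with sgKLF5 in that fit, so the lost call does not set SULF2 apart from the other members.

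SDC1, the epithelial syndecan, was 184 at the lowest, 225 at the median and 246 at the highest TPM with sgKLF5 and 389 and 413 with sgRosa in the first AsPC-1 experiment. In the repeat it was 183, 213, 222 and 222 against 375.4, 395, 378 and 357. The groups were apart in both, and the SDC1 changes were -0.87 ± 0.10 and -0.84 ± 0.06 (SE, adjusted p = 0.000102 and 8.61e-09), with no difference between the experiments past the threshold (-0.03, adjusted p = 0.920). T3M-4 had 189, 118, 181 and 181 against 352 and 345 (-1.08 ± 0.22 (SE), adjusted p = 0.029) and 159.6, 163, 163 and 163 against 231, 238, 234 and 181 (-0.44 ± 0.08 (SE), adjusted p = 0.000207). BxPC-3 had 114, 112, 105 and 108 against 217 and 214 (-0.96 ± 0.07 (SE), adjusted p = 9.64e-06) and 143, 139.9, 144 and 146 against 186, 185, 179 and 196 (-0.38 ± 0.06 (SE), adjusted p = 0.000135). In both basal-like lines the groups stayed apart and the fall in SDC1 was larger in the first experiment, by -0.64 in T3M-4 (adjusted p = 0.0275) and -0.58 in BxPC-3 (9.32e-05).

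CFPAC-1 had SDC1 of 115, 114 and 126 TPM against 161, 134, 164 and 134, a smaller fall (-0.32 ± 0.08 (SE), adjusted p = 0.0197). SUIT-2 had 39.8, 34.5, 42.6 and 46.3 against 43.3, 69.4, 59.7 and 60.4, where the groups overlapped and the change did not pass (-0.49 ± 0.18 (SE), adjusted p = 0.187). The CFPAC-1 call was lost without any 1 of 4 libraries (sgKLF5 replicates 1 and 2, sgRosa replicates 1 and 3; -0.30 to -0.27), and that of the first T3M-4 experiment without any 1 of 5, all but sgKLF5 replicate 2 (-1.14 to -1.06). Left without the 2 SUIT-2 libraries of low index, of which sgRosa replicate 1 held the lowest SDC1 of its group, the SUIT-2 change was -0.55 (adjusted p = 0.0183). With the index as a covariate SDC1 was -0.19 (adjusted p = 0.325) in CFPAC-1 and passed in the other 7 comparisons, SUIT-2 included. By the median of ratios the CFPAC-1 call was lost too.

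SDC4 did not share the direction of SDC1. With sgKLF5 it was higher in the second experiments of T3M-4, 239, 242, 231 and 241 TPM against 178, 175, 183 and 168 (0.44 ± 0.07 (SE), adjusted p = 7.58e-05), and of BxPC-3, 440.5, 491, 455 and 456 against 281, 265, 311 and 322 (0.64 ± 0.07 (SE), adjusted p = 2.25e-06). It was lower in CFPAC-1, 182, 191 and 203 against 227, 204, 229 and 227 (-0.20 ± 0.07 (SE), adjusted p = 0.0463), where the groups nearly touched and leaving out any 1 of 6 libraries, all but sgRosa replicate 2, ended the call (-0.25 to -0.17). The call was also lost by the median of ratios and with the index as a covariate. In the first BxPC-3 experiment the change was -0.25 ± 0.09 (SE), adjusted p = 0.0982, and the difference between the 2 BxPC-3 experiments passed its own test (-0.90). AsPC-1, SUIT-2 and the first T3M-4 experiment had changes of 0.21 and 0.09, 0.31 and -0.13, none called. SDC2 was tested in 3 of the 8 comparisons, those in BxPC-3 and CFPAC-1, and rose in the first BxPC-3 experiment from 2.04 and 2.36 TPM to 6.17, 4.73, 3.95 and 3.70 (0.80 ± 0.19 (SE), adjusted p = 0.0184), and its change in the second was 0.01. Leaving out either sgRosa library ended the SDC2 call (0.73 to 0.87).

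GPC1 fell in the first AsPC-1 experiment (-0.43 ± 0.09 (SE), adjusted p = 0.00541) and in both BxPC-3 experiments (-0.41 ± 0.07 and -0.69 ± 0.10, adjusted p = 0.00294 and 5.17e-05). In the second BxPC-3 experiment the GPC1 libraries were 126, 135, 132 and 138 TPM with sgKLF5 and 193, 210.1, 223 and 237 with sgRosa, well apart. The calls of the first experiments were lost without sgRosa replicate 1 in AsPC-1 (-0.37) and sgRosa replicate 2 in BxPC-3 (-0.40). The 3 GPC1 calls held with the index as a covariate (-0.37, -0.37 and -0.62). In SUIT-2 and T3M-4 its changes were positive and not called (0.51, 0.52 and 0.27).

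The secreted core proteins had the highest median correlation with other long GC-rich RNAs among the members. HSPG2 (14341 bases, 64.5% GC) correlated at over 0.9 with the index of long GC-rich RNAs across the libraries of 10 of 16 fits (median r 0.968), and AGRN (7326 bases, 67.6% GC) in 9 of 16 (median 0.942), against a median of 0.8294 for NDST1 and 0.704 for GPC1 (over 0.9 in 1 and 4 of 16), 0.335 for SDC1, 0.444 for SULF2 and 0.492 or less for the remaining 4; these are descriptions over the 8 to 20 libraries of an experiment, treated and control together, and the part of this in the results was not tested. HSPG2 rose in the first AsPC-1 experiment, 88.9 at the lowest, 129 at the median and 199 at the highest TPM against 88.3 and 62.9 (0.79 ± 0.24 (SE), adjusted p = 0.0351). In the repeat HSPG2 was 56.6, 232, 249 and 61.1 against 115, 137, 102 and 84.6, so that 2 sgKLF5 libraries lay above and 2 below the whole sgRosa group (0.14 ± 0.41 (SE), adjusted p = 0.842). The 2 low libraries were those of low index (-0.86 and -0.68), and without them the change was 1.14 (adjusted p = 0.0141). Leaving them out took away the lowest HSPG2 values of the sgKLF5 group. A higher change follows from that choice, so it is no independent support for a rise. In CFPAC-1 HSPG2 was 86.2, 68.5 and 86.6 against 253, 217, 274 and 101, lower without overlap (-1.29 ± 0.25 (SE), adjusted p = 0.00518), and with the index as a covariate it was -0.46 (adjusted p = 0.0682). AGRN fell in BxPC-3 (-0.42 ± 0.11 and -0.59 ± 0.22, adjusted p = 0.0318 and 0.0479) and CFPAC-1 (-0.46 ± 0.15 (SE), adjusted p = 0.0486), where its groups overlapped. Single libraries ended several of these calls when left out: HSPG2 in the first AsPC-1 experiment without either sgRosa library or sgKLF5 replicate 2 or 3 (0.55 to 1.03), and AGRN without either sgRosa library or sgKLF5 replicate 4 in the first BxPC-3 experiment (-0.44 to -0.40), without any but sgRosa replicate 1 in the second (-0.63 to -0.54) and without any but sgRosa replicate 4 in CFPAC-1 (-0.51 to -0.36). AGRN in CFPAC-1, with the index as a covariate, was 0.03 (adjusted p = 0.904).

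**Figure D2:**
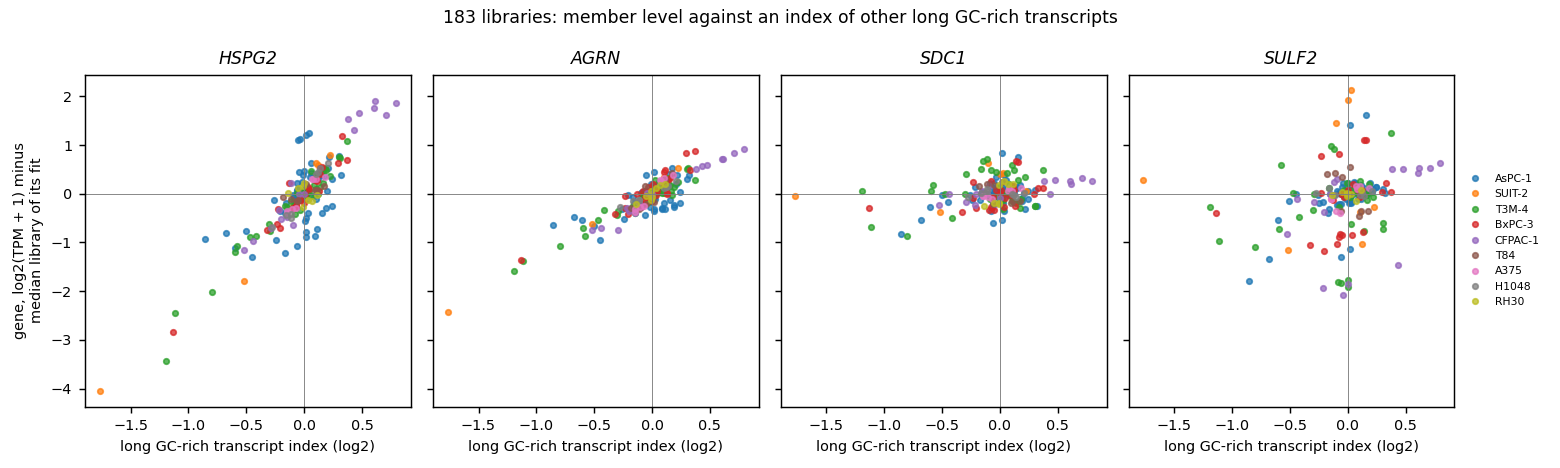
Level of HSPG2, AGRN, SDC1 and SULF2 as log2(TPM + 1) minus the median library of the experiment (vertical) against the index of other long GC-rich RNAs (log2, horizontal) in 183 libraries, coloured by line. HSPG2 and AGRN rise with the index, with a median r of 0.968 and 0.942 over experiments, and SDC1 and SULF2 follow it less (0.335 and 0.444).

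Of the sulfotransferases, HS3ST1 fell with sgKLF5 in both AsPC-1 experiments. Its 6 sgKLF5 libraries were 5.98 at the lowest, 6.31 at the median and 8.04 at the highest TPM against 35.2 and 36.6 in the first experiment (-2.27 ± 0.12 (SE), adjusted p = 8.01e-07). In the repeat HS3ST1 was 4.52, 6.07, 6.67 and 6.80 against 24.6, 27.1, 27.2 and 26.1 (-1.97 ± 0.10 (SE), adjusted p = 7.35e-11). The AsPC-1 groups were far apart in both. BxPC-3 gave opposite signs: 109.6, 106, 102 and 101 TPM against 203 and 195 in the first experiment (-0.92 ± 0.07 (SE), adjusted p = 1.56e-05), and 125, 121, 124 and 129 against 112, 113, 99.9 and 102 in the second (0.23 ± 0.09 (SE), adjusted p = 0.0519), with a difference of -1.15 between the experiments that passed its test. T3M-4 had 103, 50.0, 100.5 and 101 against 151 and 146 in the first experiment (-0.80 ± 0.31 (SE), adjusted p = 0.166), the low library being replicate 2, of low index; without the low-index libraries it was -0.54 (adjusted p = 0.000591). The second T3M-4 experiment and CFPAC-1 gave -0.05 and 0.03. In SUIT-2 the mean was 179 TPM with sgKLF5 and 268 with sgRosa. The groups overlapped and the change was not called (-0.54 ± 0.21 (SE), adjusted p = 0.231).

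NDST1 rose in both AsPC-1 experiments (0.48 ± 0.15 and 0.65 ± 0.15, adjusted p = 0.0374 and 0.00342), in the repeat from 16.6, 17.9, 18.7 and 15.9 TPM to 22.02, 32.6, 33.6 and 23.8, with no overlap. The first of these calls was lost without sgRosa replicate 2 or sgKLF5 replicate 1, 2 or 3 (0.30 to 0.48). With the index as a covariate the NDST1 changes in AsPC-1 were 0.61 and 0.91 and passed. It was not called in the other lines. SULF1 was tested in 3 comparisons. In the second BxPC-3 experiment it fell from 2.004, 1.63, 1.86 and 2.54 TPM to 0.805, 1.28, 0.729 and 0.659 (-0.69 ± 0.15 (SE), adjusted p = 0.00143). In the first AsPC-1 experiment SULF1 passed the filter only through sgKLF5 replicate 6, with 19.1 TPM against 0.163 or less in the other 5, the library that also held the basal keratins.

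**Figure D3:**
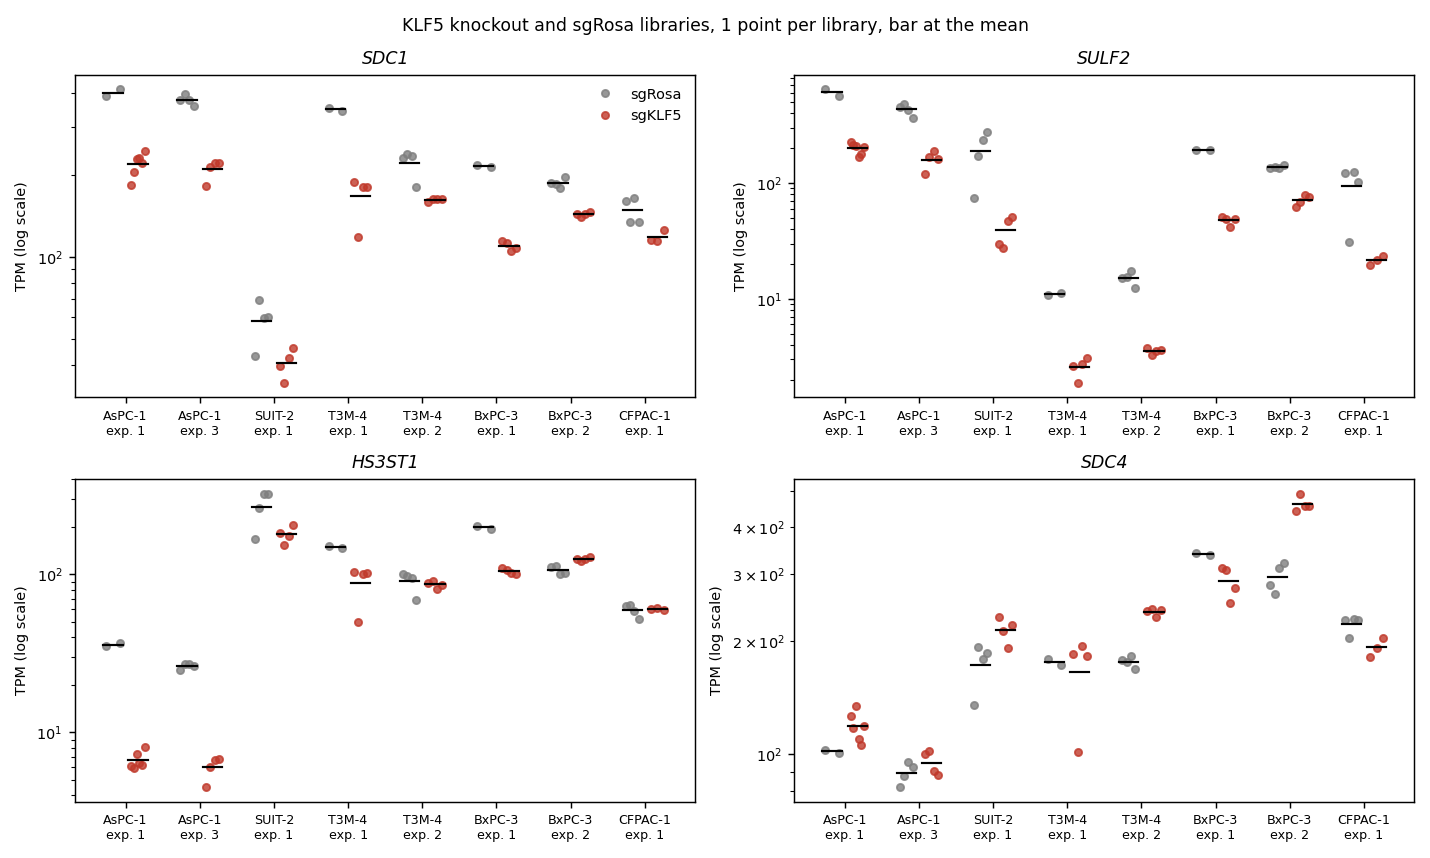
TPM (log axis) of SDC1, SULF2, HS3ST1 and SDC4 in each sgRosa (grey) and sgKLF5 (red) library of the 8 KLF5 comparisons, with a bar at each mean. SULF2 sgKLF5 points lie below the sgRosa points everywhere, SDC1 in 7 of 8, HS3ST1 lies far below in AsPC-1, and SDC4 above in the second T3M-4 and BxPC-3 experiments.

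With sgRUVBL1 or sgRUVBL2, SDC4 rose in all 9 comparisons and SULF2 was called in none. The SDC4 calls held by the median of ratios in all 9, and with the index of long GC-rich RNAs as a covariate in 7, the exceptions being those in CFPAC-1. Over these comparisons 31 of 80 member tests passed, 16 higher and 15 lower, and 38.7% of all gene tests passed, so the members as a group were called about as often as genes in general. By comparison the members called were 4 of 8, 4 of 8 and 5 of 8 in AsPC-1 (sgRUVBL1 in the second, then sgRUVBL1 and sgRUVBL2 in the third experiment; 55.8%, 51.9% and 43.2% of all genes), 3 of 9 with either guide target in T3M-4 (60.5% and 54.5%), 1 and then 2 among the 10 tested for BxPC-3 (16.0% and 9.76%) and 6 and 3 of 9 in CFPAC-1 (43.8% and 12.1%). The members' medians ranged from -0.32 to 0.17, those of all genes from -0.20 to 0.25, and 15.7% of all gene tests were lower and 23.0% higher. As deposited, the median change of all genes ranged from -0.22 to 0.33 on the log2 scale over the 51 comparisons of this report. It was more than 0.1 from 0 in 27 of them. Rescaling libraries by the median of ratios to a reference gave 14 higher and 21 lower calls here.

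SDC4 was 182, 194, 214 and 220.3 TPM with sgRUVBL1 in the second AsPC-1 experiment and 89.2, 78.9, 77.7 and 80.5 with sgRosa (1.2997 ± 0.07 (SE), adjusted p = 2.92e-09). In the third it was 211, 212, 152 and 143 with sgRUVBL1, 158, 146, 156 and 181 with sgRUVBL2 and 81.9, 87.4, 95.5 and 92.4 with sgRosa. The knockouts there were 0.98 ± 0.11 and 0.83 ± 0.11 above the control (adjusted p = 1.07e-06 and 1.25e-05), every library being above every sgRosa library. T3M-4 had 339.9, 369 and 347 with sgRUVBL1 and 284, 349.8, 339 and 305 with sgRUVBL2, against 178, 175, 183 and 168 (0.995 ± 0.07 and 0.85 ± 0.07, adjusted p = 1.4e-08 and 2.67e-08). The rise was smaller but without overlap in BxPC-3, where SDC4 was 387, 388, 343 and 365 with sgRUVBL1 and 425, 373 and 341 with sgRUVBL2, against 281, 265, 311 and 322 (0.33 and 0.36, adjusted p = 0.00478 and 0.00942). CFPAC-1 had 280.4, 295, 249 and 274 with sgRUVBL1 and 299 and 295 with sgRUVBL2, against 227, 204, 229 and 227 (0.31 and 0.43, adjusted p = 0.00106 and 0.00442). With the index as a covariate the CFPAC-1 changes in SDC4 were 0.23 (adjusted p = 0.429) and 0.38 (adjusted p = 0.124). That fit called no member with sgRUVBL1 in CFPAC-1, and 1 with sgRUVBL2. Among all genes tested, the share with groups apart in either direction ran from 15.5% (sgRUVBL2 in BxPC-3) to 62.4% (sgRUVBL1 in T3M-4).

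SDC1 was lower in 6 of the 9 comparisons, by less than with sgKLF5 in AsPC-1. Its changes were -0.31 and -0.27 in the third AsPC-1 experiment, -0.51 and -0.39 in T3M-4, -0.22 for sgRUVBL2 in BxPC-3 (adjusted p = 0.0496) and -0.24 for sgRUVBL1 in CFPAC-1. The second AsPC-1 experiment gave -0.07 and was not called. GPC1 rose in the third AsPC-1 experiment (0.36 and 0.35) and fell with sgRUVBL1 in CFPAC-1 (-0.53 ± 0.11 (SE), adjusted p = 0.00162). HSPG2 fell in the second AsPC-1 experiment (-1.104 ± 0.22 (SE), adjusted p = 0.0005) and in CFPAC-1 (-2.01 and -1.73, adjusted p = 3.88e-05 and 0.00323), and rose in T3M-4 (1.596 and 1.23, adjusted p = 0.0156 and 0.0414). One of the 4 T3M-4 sgRosa libraries had a low index of long RNAs (-1.20), and without the low-index libraries HSPG2 was 0.47 with sgRUVBL2 (adjusted p = 0.0762). AGRN fell in the second AsPC-1 experiment (-0.50) and CFPAC-1 (-1.01 and -0.71). The SDC1 call in BxPC-3 was lost without any 1 sgRosa library or sgRUVBL2 replicate 3 (-0.24 to -0.14), and that in CFPAC-1 without sgRosa replicate 1 or 3 or sgRUVBL1 replicate 1 (-0.20 to -0.19); both were lost by the median of ratios and with the index as a covariate. With that covariate the CFPAC-1 changes with sgRUVBL1 were -0.57 (adjusted p = 0.177) for HSPG2, -0.17 (adjusted p = 0.586) for AGRN and -0.02 (adjusted p = 0.964) for GPC1, so that none passed. With sgRUVBL2 in CFPAC-1 they were -0.82 (adjusted p = 0.0201) for HSPG2 and -0.18 (adjusted p = 0.504) for AGRN, and in T3M-4 HSPG2 with sgRUVBL1 was 0.22 (adjusted p = 0.064). The GPC1 rises in AsPC-1 were not called by the median of ratios.

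The sulfation genes were called in few comparisons. SULF2 lay between -0.32 and 0.19 in the 9 comparisons, and without the library labelled CFPAC-1 sgRosa replicate 2 its change with sgRUVBL1 in that line was -0.79 (adjusted p = 0.000532) instead of -0.32 (0.414). HS3ST1 moved in AsPC-1 only slightly, -0.26 ± 0.07 (SE), adjusted p = 0.00316 in the second experiment and 0.29 ± 0.10 (SE), adjusted p = 0.0254 with sgRUVBL2 in the third. NDST1 rose with both knockouts in the third AsPC-1 experiment (0.38 and 0.55) and fell with sgRUVBL1 in CFPAC-1 (-0.67). Left without 1 library, 6 of 8 in turn ended the AsPC-1 NDST1 call with sgRUVBL1 (all but sgRosa replicate 3 and sgRUVBL1 replicate 4; 0.31 to 0.40). It was not called by the median of ratios either, nor was HS3ST1 with sgRUVBL2, and with the index as a covariate NDST1 in CFPAC-1 was -0.28 (adjusted p = 0.602).

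To ask whether a member responded differently to KLF5 loss and to RUVBL loss, sgKLF5 libraries were compared with sgRUVBL1 and sgRUVBL2 libraries of the same experiment, 8 comparisons in which 33 of 72 member tests passed, 8 higher and 25 lower (40.7% of all gene tests, 18.3% higher and 22.4% lower). Against sgRUVBL1 and sgRUVBL2 in turn, 5 of 8 members passed each time in AsPC-1 (58.5% and 52.1% of all genes), 3 of 9 each time in T3M-4 (45.8% and 39.7%), 5 and then 4 of 10 in BxPC-3 (44.0% and 40.0%) and 6 and then 2 of 9 in CFPAC-1 (30.9% and 15.6%). SULF2 was lower with sgKLF5 in 8 of 8, with differences from -0.88 to -2.0998 on the log2 scale. SDC4 was lower with sgKLF5 in AsPC-1 (-0.89 and -0.75), T3M-4 (-0.56 and -0.42) and CFPAC-1 (-0.51 and -0.63), and higher in BxPC-3 (0.31 and 0.28). SDC1 was lower with sgKLF5 in AsPC-1 (-0.53 and -0.57) and, against sgRUVBL1, in BxPC-3 (-0.27). GPC1 was lower with sgKLF5 in AsPC-1 (-0.57 and -0.56) and BxPC-3 (-0.50 and -0.34) and higher in T3M-4 (0.49 and 0.49). Against sgRUVBL1 in CFPAC-1, GPC1 (0.51), HSPG2 (0.72), AGRN (0.55) and NDST1 (0.59) were higher with sgKLF5, and none of these 4 passed with the index as a covariate. The GPC1 difference from sgRUVBL2 in BxPC-3 was lost without sgKLF5 replicate 1 or sgRUVBL2 replicate 1 or 2 (-0.32 to -0.21). HS3ST1 was lower in AsPC-1 (-1.91 and -2.26), and SULF1 in BxPC-3 (-0.83 against both).

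**Figure D4:**
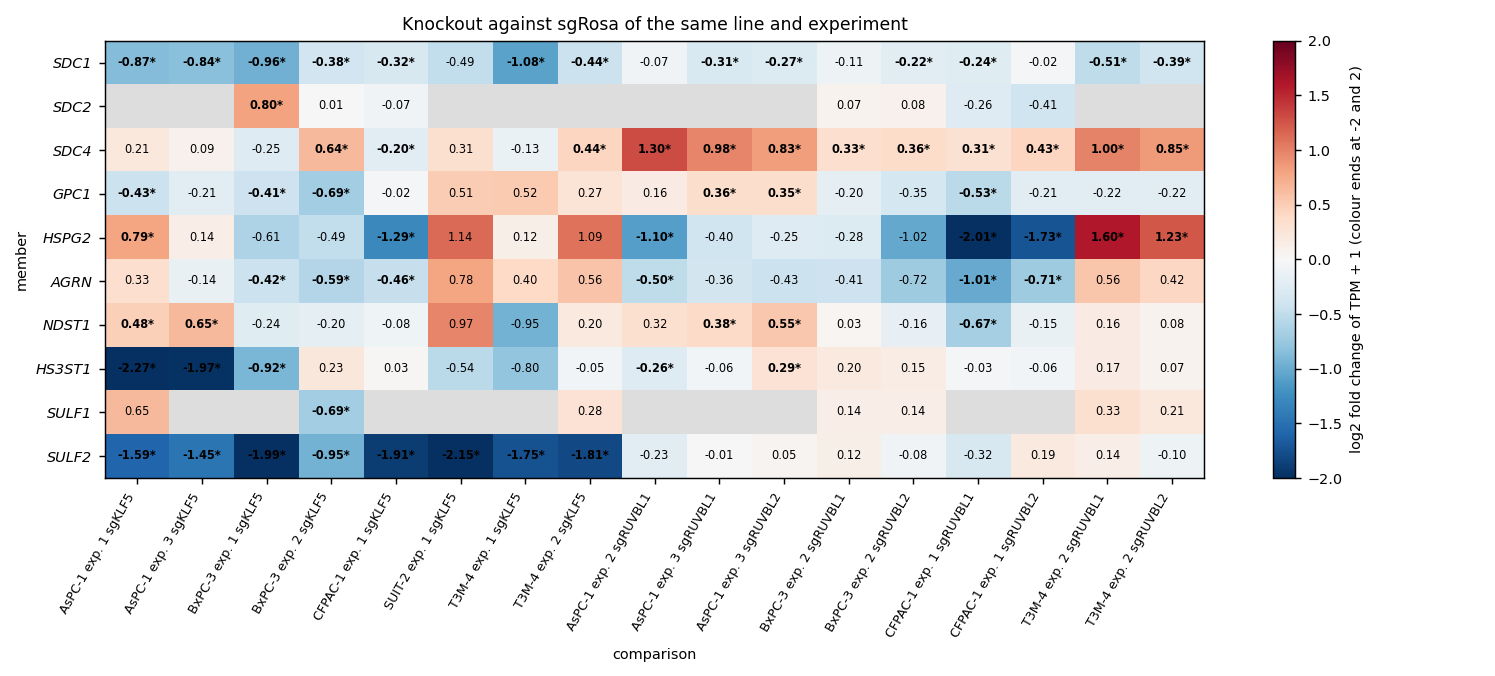
Change of each of the 10 genes against sgRosa, as a difference of log2(TPM + 1), in the 8 sgKLF5 and 9 sgRUVBL1 or sgRUVBL2 comparisons; blue is lower, red higher, colours end at -2 and 2, a star marks an adjusted p under 0.05 and grey a gene under the 1 TPM filter. The SULF2 row is blue and starred under every sgKLF5 column and unstarred under every RUVBL column, and the SDC4 row is red and starred under all 9 RUVBL columns.

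The other knockouts called 14 of 105 member tests, 8 higher and 6 lower (12.3% of all gene tests, 7.31% higher and 4.97% lower; 7 and 8 calls by the median of ratios), and 8 of the 14 came from sgCHD4 in AsPC-1, where all 8 members tested passed and 50.0% of all genes did. CHD4 is the ATPase of the NuRD remodelling complex. HS3ST1, which fell with sgKLF5 in these cells, rose from 23.2, 22.5, 22.3 and 21.6 TPM to 52.1, 47.7, 42.1 and 47.4 (1.04 ± 0.07 (SE), adjusted p = 2.59e-07). SDC4 (0.41) and NDST1 (0.36) also rose, and HSPG2 (-1.15), SULF2 (-0.43), GPC1 (-0.33), AGRN (-0.32) and SDC1 (-0.25) fell. The NDST1 call was lost without sgCHD4 replicate 1 or 3 or sgRosa replicate 1, 3 or 4 (0.28 to 0.36). With sgSERPINB5 in AsPC-1 none of 8 members was called by limma, 2 had an unadjusted p under 0.05, and 0.0343% of all genes were called. With sgRpa3, SDC4 rose in AsPC-1 to 169 and 162 TPM against 81.9, 87.4, 95.5 and 92.4 (0.89 ± 0.13 (SE), adjusted p = 0.00113), GPC1 (0.52) and SULF1 (4.43 and 5.55 TPM, 0.996 ± 0.18 (SE), adjusted p = 0.00107) rose in BxPC-3, and HS3ST1 fell in T3M-4 (-0.36 ± 0.11 (SE), adjusted p = 0.023). With sgCDK1, NDST1 rose in AsPC-1 (0.84). The sgRpa3 calls were 1 of 8 members in AsPC-1 (0.654% of all genes), 1 of 9 in the second T3M-4 (24.6%) and 2 of 10 in the second BxPC-3 experiment (20.8%), and 0 in the first experiments of T3M-4 (0% of all genes) and BxPC-3 (0.307%), with 0 and 5 members at an unadjusted p under 0.05. The sgCDK1 calls were 1 of 8 in AsPC-1 (16.7%) and 0 by limma in T3M-4 (16.8%), BxPC-3 (5.82%) and the CFPAC-1 libraries so labelled (0%), with 2, 0 and 1 at an unadjusted p under 0.05. In the CFPAC-1 libraries labelled sgRpa3 1 of 9 was called (11.6%): SDC4 was higher by 0.25 (adjusted p = 0.0406). That call was lost without any 1 of 5 of 6 libraries, all but sgRosa replicate 3 (0.21 to 0.29), and the HS3ST1 call with sgRpa3 in T3M-4 without sgRosa replicate 1 or 2 or either sgRpa3 library (-0.39 to -0.31). Those of GPC1 in BxPC-3 and of SDC4 in AsPC-1 with sgRpa3 and of NDST1 in AsPC-1 with sgCDK1 were lost without replicate 1 of the knockout (0.49, 0.86 and 0.78).

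CB-6644 was asked about next, as a 24 h loss of RUVBL ATPase activity. In cells with the empty vector it called 10 of 18 member tests against the 3 DMSO libraries of the line, 5 higher and 5 lower (48.7% of all gene tests, 32.5% higher and 16.2% lower); by the median of ratios the split was 4 and 7. They were 5 of 8 in AsPC-1 (64.4% of all genes) and 5 of 10 in T3M-4 (34.3%). HS3ST1 and SDC1 fell in both lines. In AsPC-1, HS3ST1 was 5.98, 5.18 and 5.30 TPM with the compound, against 20.4 in the EV, 16.9 in the A62T and 17.6 in the dF109 DMSO library (-1.57 ± 0.09 (SE), adjusted p = 7.06e-08). SDC1 was 240.0, 241 and 260.0 against 329.7, 303 and 304 (-0.34 ± 0.05 (SE), adjusted p = 0.000115). SDC4 was 337, 338 and 369 against 173, 142 and 114 (1.296 ± 0.11 (SE), adjusted p = 1.06e-06). All treated AsPC-1 libraries lay outside the DMSO range for these 3 genes, and the groups were likewise apart for 64.0% of all genes tested. GPC1 (0.40 ± 0.12 (SE), adjusted p = 0.0129) and AGRN (0.57 ± 0.15 (SE), adjusted p = 0.0054) rose too, and SULF2 was -0.04. Against the EV DMSO library alone, a control of 1 library whose spread was assumed to be that of the CB-6644 groups, GPC1 was 0.05 and AGRN 0.43, and neither was called. The GPC1 change with the index as a covariate was 0.13 (adjusted p = 0.185), and by the median of ratios it was not called.

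In T3M-4, HS3ST1 was 26.6, 21.0 and 19.3 TPM with the compound, against 37.7 in the EV DMSO library but 81.5 and 74.6 in the variants (-1.43 ± 0.23 (SE), adjusted p = 0.000705). Against the EV DMSO library alone HS3ST1 was -0.75, from 1 control library and with the spread borrowed from the other groups. SDC4 showed the same gap between controls, 105 in the EV against 266 and 191, so that treated values of 236, 229 and 222 were above the EV control and inside the pooled range (0.39 ± 0.24 (SE), adjusted p = 0.224). The T3M-4 EV DMSO library and one EV CB-6644 library were among those of low index (-0.59 and -1.12). SDC1 was 80.6, 71.1 and 62.2 against 105, 112 and 99.996 (-0.57 ± 0.09 (SE), adjusted p = 0.000856). SULF1 rose from 1.81, 1.70 and 1.51 to 4.51, 4.37 and 3.98 (0.98 ± 0.10 (SE), adjusted p = 6.51e-05), SDC2 rose (0.65 ± 0.13 (SE), adjusted p = 0.00347), NDST1 fell (-0.67 ± 0.18 (SE), adjusted p = 0.0131) and SULF2 did not pass (-0.54 ± 0.21 (SE), adjusted p = 0.066). Against the EV DMSO library alone NDST1 was -0.37. SDC2 was 1.49, 2.08 and 2.26 TPM against 0.736, 0.763 and 1.13, so that it reached the 1 TPM filter of this fit through the CB-6644 libraries, and in the knockout experiments of T3M-4 it was under the filter and not tested.

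RUVBL1 A62T and RUVBL2 dF109 were expressed as variants that resist the compound. In these cells CB-6644 called 10 of 36 member tests against DMSO, 8 higher and 2 lower (33.9% of all gene tests, 30.4% higher and 3.53% lower), and by the median of ratios 3 higher and 4 lower. With A62T and dF109 in turn they were 1 and 2 of 8 in AsPC-1 (12.7% and 33.4% of all genes) and 4 and 3 of 10 in T3M-4 (50.0% and 37.6%). HS3ST1 in AsPC-1 moved by -0.34 ± 0.09 (SE), adjusted p = 0.0319 with A62T and -0.44 ± 0.09 (SE), adjusted p = 0.00528 with dF109. In T3M-4, SDC4 (0.89 and 0.75), SDC2 (0.37 and 0.55) and SULF1 (0.67 and 0.88) were called higher with both variants. By the median of ratios SULF1 alone of the 3 was called with either variant. SDC2 averaged 0.875 TPM in the DMSO libraries, and 1.41 with A62T and 1.74 with dF109 under CB-6644. It thus reached the 1 TPM filter through the CB-6644 libraries here too, and its calls are no independent support for a rise. SDC2 with A62T was lost without any 1 of 5 of 6 libraries, all but the dF109 DMSO library (0.31 to 0.42), and SDC4 with dF109 without any dF109 library (0.74 to 0.81). With the index as a covariate SDC4 was 0.65 and 0.56 and not called. The pooled T3M-4 control of SDC4 held 105 TPM in the EV DMSO library against 266 and 191 in those of the variants. Under CB-6644 its means were 326 with A62T, 295 with dF109 and 229 with the EV. The sizes against the pooled control thus do not rank the SDC4 response of the vectors.

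Vectors were also compared within the compound, where 20 of 36 member tests passed, 15 higher and 5 lower (45.8% of all gene tests, 28.1% higher and 17.7% lower): 5 and 5 of 8 in AsPC-1 (51.1% and 47.2%) and 6 and 4 of 10 in T3M-4 (50.6% and 34.6%). SDC1, HS3ST1 and SULF2 were higher with the variant in 4 of 4 comparisons. HS3ST1 was 14.3, 12.98 and 15.5 TPM with A62T and 13.5, 13.5 and 12.7 with dF109 in AsPC-1 under CB-6644, against the 5.98, 5.18 and 5.30 of the empty vector (1.23 and 1.14). In T3M-4 it was 86.4, 82.2 and 85.2 with A62T and 71.1, 70.9 and 70.9 with dF109 (1.89 and 1.64). The T3M-4 vectors differed in the same direction without the compound, with HS3ST1 at 37.7 TPM in the EV DMSO library against 81.5 and 74.6 in those of the variants; with 1 DMSO library a vector, how much of the difference under CB-6644 this makes up was not tested. Without the low-index libraries, which include 1 EV CB-6644 library, the T3M-4 HS3ST1 differences were 1.80 and 1.55. SDC1 was higher by 0.41 and 0.35 in AsPC-1 and by 0.77 and 0.48 in T3M-4, and SULF2 by 0.20 and 0.18 and by 0.68 and 0.75. The SULF2 calls were lost in each comparison when any 1 of 3 or 4 of its 6 libraries was left out, with differences between 0.14 and 0.19 in AsPC-1 and between 0.54 and 0.77 in T3M-4, and with the index as a covariate the T3M-4 SULF2 differences were 0.33 and 0.46 and not called. SDC4 was lower with the variants in AsPC-1 (-0.9995 and -1.02) and not called in T3M-4 (0.51 and 0.36). NDST1 was higher in T3M-4 (1.13 and 0.84) and GPC1 lower in AsPC-1 (-0.47 and -0.42).

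Outside the pancreas, CB-6644 moved most genes: 30 of 36 member tests passed in T84, A375, H1048 and RH30, 16 higher and 14 lower (14 and 18 by the median of ratios, where H1048 went from 4 higher and 2 lower to 4 and 6), and 77.2% of all gene tests did (50.8% higher and 26.3% lower), so that the sizes carry more than the calls. The members called were 6 of 8 in T84 (71.4% of all genes), 10 of 10 in A375 (81.1%), 6 of 10 in H1048 (77.9%) and 8 of 8 in RH30 (77.7%). SDC4 rose in all 4 lines. In A375 it was 349, 364, 330.2 and 351 TPM against 97.5, 100.1, 102 and 103 (1.78 ± 0.03 (SE), adjusted p = 7.67e-12). In T84 it was 279.6, 276, 286 and 261 against 135, 143, 144 and 149.7 (0.94), in H1048 97.4, 97.8, 92.1 and 95.8 against 44.8, 39.0, 41.7 and 40.4 (1.19) and in RH30 201, 202, 209 and 209 against 95.1, 95.8, 98.6 and 98.5 (1.07). Treated and control libraries of SDC4 were apart in every line. So were those of 63.8% of all genes tested in T84, 75.5% in A375, 71.3% in H1048 and 71.5% in RH30. NDST1 fell in all 4, by 0.30, 0.33, 0.38 and 0.56 in T84, A375, H1048 and RH30.

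The other members depended on the line. All 10 differed between lines in the size of the response by an F test of the interaction, as did 86.2% of all genes, with NDST1 the closest to the threshold (adjusted p = 0.00649). SDC2 and SULF1 in T84 and HS3ST1 and SULF2 in RH30 had DMSO means of 0.016, 0, 0.039 and 0.13 TPM. A gene near 0 can hardly fall on this scale, so for these genes the F test cannot separate response from level. HS3ST1 in A375 was 0.596, 0.507, 0.581 and 0.367 TPM against 6.28, 5.39, 4.17 and 5.06 (-2.03 ± 0.11 (SE), adjusted p = 1.07e-08), in T84 it fell by 0.42, and in H1048 it did not pass (-0.27 ± 0.13 (SE), adjusted p = 0.0675). GPC1 rose in A375 (0.85) and H1048 (0.66) and fell in RH30, from 161, 176, 163 and 161 TPM to 91.5, 95.7, 90.4 and 87.3 (-0.85). SULF2 fell in T84, from 12.7, 14.9, 13.6 and 13.2 to 6.91, 7.40, 7.47 and 7.43 (-0.81), and rose in A375, from 53.6, 55.1, 65.4 and 65.6 to 75.9, 79.4, 76.4 and 78.3 (0.37), with no overlap in either. SULF1 in RH30, the line with the most of it, rose from 5.64, 5.92, 6.08 and 5.91 to 11.8, 11.96, 11.9 and 12.2 (0.91). HSPG2 rose in H1048 (1.01), A375 (0.65) and RH30 (0.27). AGRN rose in T84, A375 and H1048 (0.54, 0.61 and 0.34) and fell in RH30 (-0.25). SDC1 fell in T84 (-0.37) and RH30 (-0.42), was -0.04 in H1048, and in A375 was 0.15 as deposited but -0.07 after median-of-ratios scaling. SDC2 rose in A375 (0.47) and fell in H1048 (-0.21) and RH30 (-0.11).

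**Figure D5:**
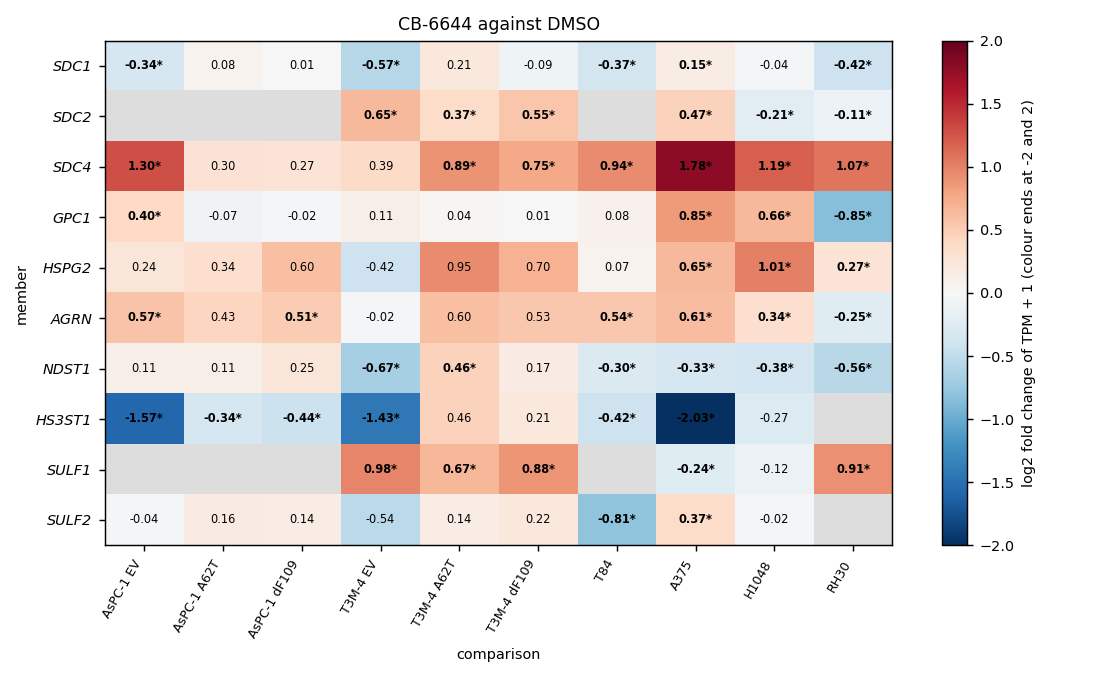
Change of each of the 10 genes with CB-6644 against DMSO, as a difference of log2(TPM + 1), in the 10 comparisons (EV, A62T and dF109 cells of AsPC-1 and T3M-4, and T84, A375, H1048 and RH30); colours end at -2 and 2, a star marks an adjusted p under 0.05 and grey a gene under the 1 TPM filter. SDC4 is red and starred in EV AsPC-1, in A62T and dF109 cells of T3M-4 and in all 4 non-pancreatic lines. DMSO libraries of the vectors are pooled within a line. For SDC4 in T3M-4 they held 105 TPM in the EV against 266 and 191 in the variants. HS3ST1 is deep blue in EV AsPC-1, EV T3M-4 and A375.

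The remaining genes of the pathway were read from a list of 60 genes by role. Outside the 10 members, 70 of 270 tests were higher and 20 lower in the 8 KLF5 comparisons (25.9% and 7.41%, against 11.8% and 8.81% of all genes). The list leaned up where the members leaned down, but both were chosen with earlier results of these data known, among them lower SDC1 and SULF2. Among other core proteins with sgKLF5, SRGN, the intracellular proteoglycan serglycin, rose in 6 comparisons (0.38 to 1.56 over those tested), COL18A1, a basement membrane collagen that carries chains, rose in 4 and fell in 1 (-0.38 to 1.11), and TGFBR3, betaglycan, fell in 6 of 8 (-2.19 to -0.26). TGFBR3 in the second T3M-4 experiment was 0.975 ± 0.298 against 3.75 ± 0.0779 TPM (SD, n = 4 each; -1.28 ± 0.11 (SE), adjusted p = 1.05e-07). B3GAT3, which completes the linker to the core protein, rose in 6 of 8 (0.33 to 1.14), and HS2ST1, the 2-O-sulfotransferase, in 4 (-0.55 to 0.76).

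With RUVBL1 or RUVBL2 loss, 81 of 304 tests of non-members were higher and 39 lower (26.6% and 12.8%, against 23.0% and 15.7% of all genes). The chain modifiers HS2ST1 and NDST2 rose in 6 of 9 each (0.19 to 0.77 and -0.01 to 1.103) and the epimerase GLCE in 4 (0.09 to 0.59). The polymerase EXT2 rose in 6 (-0.06 to 0.41), EXT1 in 4 with 2 lower (-0.55 to 0.77), and the linker enzymes B4GALT7 in 5 (-0.07 to 0.56) and B3GAT3 in 4 (-0.24 to 0.72). SRGN rose in 4 (0.13 to 0.87), and COL18A1 fell in 4 and rose in 2 (-0.50 to 0.31).

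With CB-6644 in the empty vector, 28 of 66 tests of non-members were higher and 6 lower, against 32.5% and 16.2% of all genes, and in T84, A375, H1048 and RH30 91 of 145 were higher and 33 lower (62.8% and 22.8%, against 50.8% and 26.3% of all genes). NDST2, GLCE, HS2ST1 and B3GAT3 rose in 6 of 6, over 0.81 to 1.05, 0.34 to 1.13, 0.42 to 0.99 and 0.31 to 1.02 in the 4 lines, while the member NDST1 fell in these lines. EXT1 rose in 5 (0.13 to 0.51), and EXT2, EXTL2, B4GALT7, HS6ST1 and SDC3 in 4 each (0.40 to 0.60, 0.03 to 0.82, 0.29 to 0.59, -0.32 to 1.28 and -0.29 to 0.81 in the 4 lines). HS6ST1 and SDC3 also fell in 1 comparison each. EXTL3, which starts the chain, fell in 5 (-0.47 to -0.10), and the kinase FAM20B and HS3ST3B1, another 3-O-sulfotransferase, fell in 4 each (-0.57 to -0.14 and -0.58 to -0.23).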

How the data were processed

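Poly-A RNA of 183 libraries was sequenced as single-end reads. The authors pseudo-aligned the reads to hg38 with kallisto, removed transcripts of low abundance by a limit not given in the sources used here, and deposited TPM per gene in 8 tables. TPM sums to 1e+06 per library and keeps no depth, so no count test was run. From these values, log2(TPM + 1) was fitted per experiment over all its groups with limma 3.58.1 in R 4.3.3, with genes averaging below 1 TPM left out, and p-values were adjusted over all genes tested by the method of Benjamini and Hochberg. Groups came from the labels. DMSO libraries of the 3 vectors were pooled within AsPC-1 and within T3M-4. The steps were tested on simulated data. The members, the 60-gene pathway list and the marker lists were chosen with earlier results of these data known, among them lower SDC1 and SULF2 with sgKLF5, which are therefore no independent support. Pathway genes outside the members were named if called in 1 direction in at least 4 comparisons of a kind. Alternatives covered the pseudocount, the filter, scaling, the samples in a fit, a replicate block and single libraries left out. The last 3 alternatives were chosen after seeing the data: libraries of low long-RNA index left out, that index as a covariate, and CFPAC-1 sgRosa replicate 2 left out.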

Additional observations from a re-analysis of the deposited data

Results flagged for a closer look

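In 30 of 259 groups of 4 to 10 libraries tested for a member, the highest or lowest library lay far from the others; chance gives about 1 in 20. Several came from single libraries. The T3M-4 sgKLF5 library replicate 2 of the first experiment was low in SDC1 at 118 (others 181 to 189) TPM, SDC4 at 101 (others 182 to 194), GPC1 at 120.0 (others 167 to 169) and HS3ST1 at 50.0 (others 100.5 to 103). In AsPC-1 sgSERPINB5 replicate 4, SDC1 was 229.9 (others 272 to 278) and NDST1 8.95 (others 14.4 to 15.1). SULF1 in AsPC-1 sgKLF5 replicate 6 was 19.1 (others 0 to 0.163), in the library that held the basal keratins.

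The remaining single values among sgRosa libraries were SDC1 of 318 (others 325 to 326) and SULF2 of 547 (others 575 to 578) in the AsPC-1 CHD4 experiment, GPC1 of 45.8 (others 55.0 to 56.7) in the third AsPC-1 experiment, SDC4 of 204 (others 227 to 229) and AGRN of 169 (others 273 to 289.8) in CFPAC-1, SDC1 of 181 (others 231 to 238) and SULF1 of 2.21 (others 1.34 to 1.38) in the second T3M-4 experiment, and NDST1 of 4.94 (others 14.2 to 14.6) in SUIT-2. Among knockout libraries they were SULF2 of 374 (others 435 to 445) with sgCHD4, AGRN of 51.5 (others 55.4 to 55.7) in the second and SULF2 of 361 (others 444 to 461) in the third AsPC-1 experiment with sgRUVBL1, HSPG2 of 36.2 (others 48.3 to 49.6) with sgKLF5 and SULF1 of 2.94 (others 2.06 to 2.17) with sgRUVBL1 in the second BxPC-3 experiment, AGRN of 150.3 (others 113 to 117) with sgRUVBL1 in CFPAC-1, SDC1 of 159.6 (others 163 to 163) with sgKLF5 in the second T3M-4 experiment, and HSPG2 of 25.7 (others 139.7 to 160.4) with sgKLF5 in SUIT-2. In the lines outside the pancreas they were HS3ST1 of 7.26 (others 5.06 to 5.37) and SULF2 of 6.91 (others 7.40 to 7.47) in T84 with CB-6644, and with DMSO HSPG2 of 19.4 (others 15.4 to 15.9) in T84, SDC1 of 46.0 (others 47.5 to 47.7) in A375, AGRN of 99.9 (others 109.7 to 111) in H1048, and SDC2 of 74.0 (others 70.3 to 70.7) and GPC1 of 176 (others 161 to 163) in RH30.

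Effects that differed between experiments of 1 line by an interaction term were, as first minus repeat on the log2 scale, those of sgKLF5 in BxPC-3 on SDC1 (-0.58), SDC2 (0.79), SDC4 (-0.90), HS3ST1 (-1.15), SULF1 (0.93) and SULF2 (-1.04), and in T3M-4 on SDC1 (-0.64) and HS3ST1 (-0.75). SULF1 was under the filter in the first BxPC-3 experiment, at 0.97 TPM with sgKLF5 and 0.65 with sgRosa. In the second it was 0.87 and 2.01, so its difference cannot be told apart from one in control level. Responses to CB-6644 that differed among T84, A375, H1048 and RH30 gave F of 74.0 for SDC1, 45.9 for SDC2, 102 for SDC4, 210.0 for GPC1, 37.5 for HSPG2, 64.0 for AGRN, 5.28 for NDST1, 93.2 for HS3ST1, 54.5 for SULF1 and 71.5 for SULF2. SDC2 and SULF1 were near 0 TPM in T84, and HS3ST1 and SULF2 in RH30, so their F cannot separate response from level.

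For the next values, every library of a group lay on 1 side of its control in some lines and on the other side in others, and the difference between lines was not tested. With sgKLF5, SDC4 was 0.21 in AsPC-1 (first experiment), 0.44 in T3M-4 (second), -0.25 and 0.64 in BxPC-3 and -0.20 in CFPAC-1. GPC1 was -0.43 in AsPC-1, 0.52 in T3M-4 (first experiments) and -0.41 and -0.69 in BxPC-3. HSPG2 was 0.79 in AsPC-1, -0.61 and -0.49 in BxPC-3 and -1.29 in CFPAC-1, and AGRN was 0.33 in AsPC-1 and -0.42 and -0.59 in BxPC-3. NDST1 was 0.48 and 0.65 in AsPC-1, 0.97 in SUIT-2, -0.95 in T3M-4 (first) and -0.20 in BxPC-3 (second), and HS3ST1 was -2.27 and -1.97 in AsPC-1, -0.80 in T3M-4 (first) and -0.92 and 0.23 in BxPC-3. With RUVBL loss, GPC1 was 0.35 (sgRUVBL2) and 0.16 (sgRUVBL1) in AsPC-1 and -0.53 in CFPAC-1 (sgRUVBL1). HSPG2 was -1.10 in AsPC-1 and 1.596 in T3M-4 with sgRUVBL1, and -2.01 and -1.73 in CFPAC-1 with sgRUVBL1 and sgRUVBL2.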

How the results depend on the processing

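Of 181 member calls, 113 kept their direction and threshold under every alternative run, and 45 were lost when some single library was left out. Across single libraries left out, calls ranged from 30 to 37 for KLF5 (33), 28 to 35 for RUVBL (31), 13 to 16 for other knockouts (14), 31 to 35 for KLF5 against RUVBL (33), 9 to 11 for CB-6644 in EV cells (10), 8 to 14 in variant cells (10), 17 to 23 for variant against EV (20), 29 to 31 in the 4 other lines (30) and 6 to 10 for the experiments' difference (8). With a mean of at least 5 TPM, the calls in variant cells were 6 in place of 10, since SDC2, SULF1 and other low genes leave the fit. Without the low-index libraries, KLF5 calls were 47 (14 higher and 33 lower), RUVBL calls 39, other knockouts 18, KLF5 against RUVBL 41 and variant against EV 24; as a covariate the index gave 42, 38, 19, 44 and 20. Calls that changed sign were AGRN in CFPAC-1 with sgKLF5 (0.025) and HSPG2 in T3M-4 A62T against EV (-0.0166) and SULF1 in A375 with CB-6644 (0.160), all with the index as a covariate, and SDC1 in A375 with CB-6644 (-0.0678) by median-of-ratios scaling; the cause was not tested. Against a vector's own DMSO library, a control of 1 library taken to vary like the other groups, 12 of 20 calls passed. Of 30 comparisons with 3 or more shared replicate numbers, 0 had the correlation of every pair over 0.1. This rule cannot exclude pairing. In the second BxPC-3 experiment, 3 of 4 pairs of sgKLF5 and sgRosa libraries were over 0.1 (0.03 to 0.19 over the 4). With the replicate number as a block, calls were 36 for KLF5, 29 for RUVBL, 15 for other knockouts, 34 for KLF5 against RUVBL, 23 for variant against EV, 30 in the 4 lines, 11 for the experiments' difference and 10 for the F test. For CB-6644 against DMSO in AsPC-1 and T3M-4, no paired analysis was possible because each DMSO group had 1 library. Depth is unknown, and SDC2 and SULF1 near 1 TPM are read with the least precision.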

Other observations

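The genes that supply sulfate and sugar donors and those that take chains apart were read from the same list. With sgKLF5, donor genes were higher in 15 of 48 tests and lower in 1, and breakdown genes higher in 16 of 64 and lower in 6 (11.8% of all gene tests were higher and 8.81% lower). SLC35B2, which carries the sulfate donor into the Golgi, and UGDH, which makes the glucuronic acid donor, rose in 4 of 8 comparisons (-0.01 to 0.40 and -0.42 to 1.11). The lysosomal enzymes IDS and SGSH also rose in 4 (-0.02 to 0.98 and 0.19 to 1.299), IDUA in 4 with 1 lower (-0.77 to 1.38), whereas heparanase, HPSE, fell in 4 (-1.11 to 0.20).

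With RUVBL1 or RUVBL2 loss, donor genes were higher in 20 of 54 tests and lower in 9, and breakdown genes higher in 19 of 72 and lower in 6 (23.0% and 15.7% over all genes, which the breakdown genes are near in the higher direction). SLC35B2 rose in 8 of 9 (0.17 to 0.72), while the sulfate donor synthase PAPSS1 fell in 6 (-0.48 to -0.07) and its paralog PAPSS2 rose in 4 and fell in 2 (-0.58 to 0.43). IDS rose in 6 and fell in 1 (-0.48 to 1.29) and SGSH rose in 5 (-0.24 to 1.46).

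With CB-6644 in T84, A375, H1048 and RH30, donor genes were higher in 14 of 23 tests and lower in 6, and breakdown genes higher in 25 of 29 and lower in 2 (50.8% and 26.3% over all genes). Counting EV AsPC-1 and T3M-4 with them, SLC35B2 rose in 6 of 6, SLC35B3, UXS1, GUSB, HPSE, IDS and SGSH in 5 each, HGSNAT in 5 with 1 lower and IDUA in 4, and PAPSS1 fell in 5 and rose in 1. In the 4 lines HPSE ranged over 0.30 to 0.89, SGSH over 0.62 to 1.21 and PAPSS1 over -0.35 to -0.21.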
